A study of Mus musculus with 10 samples.

Results

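Ucp1, Cidea, Elovl3, Cox8b, Cox7a1, Dio2, Ppargc1a, Prdm16 and Otop1 are genes by which thermogenic brown and beige fat is recognised. They were taken as a list of symbols and matched to Ensembl identifiers, and they make up 9 of the 46983 genes counted in RNA from the mouse mammary gland. The libraries came from the glands of female C57BL/6 mice that had eaten a control folic acid (CFA) diet with 1 mg FA/kg or a high folic acid (HFA) diet with 5 mg FA/kg. All mice then ate the same maintenance diet until the glands, thoracic fat pads from the right side, were taken at PND 130, and there were 5 libraries per diet with 1 mouse each. No group carried a transgene, a deletion or a drug. Each library is called here by its diet and replicate number, CFA 1 to CFA 5 and HFA 1 to HFA 5.

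Brown and beige adipocytes burn fuel to make heat. Noradrenaline from sympathetic nerves acts on β-adrenergic receptors, cAMP rises, stored fat is broken down, and fatty acids both feed the mitochondria and open the uncoupling protein UCP1, which lets protons return to the matrix without making ATP. The mouse mammary epithelium grows within a pad of mostly white adipocytes, and such pads can hold scattered beige adipocytes. In RNA from whole tissue, fewer cells of a type and less RNA per cell cannot be told apart, and this holds for every level below.

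Reads counted on genes numbered 7672199 to 14829291 per library, and 3 reads, the limit that a count of 0 allows, correspond to 0.191 to 0.426 CPM, counts scaled to the size of the library. CPM values here are after TMM scaling, a correction for differences in library composition. Adipoq, the adipocyte hormone adiponectin, stood at 1081 to 2087 CPM in every library, and the epithelial adhesion gene Epcam at 46.7 to 350 CPM, so markers of both fat and epithelium were present throughout. HFA 5 stood apart, with a median correlation of 0.798 with the other libraries against 0.918 to 0.970 for each of the other 9. Its 10 skeletal muscle markers summed to 832 CPM, against 52241 to 66879 CPM in the other HFA and 8198 to 50601 CPM in the CFA libraries. The 10 B and T cell markers summed to 2696 CPM in HFA 5, 941 CPM in CFA 5 and 371 CPM in CFA 2, and to 7.59 to 11.8 CPM in the other 7 libraries. Several results below are therefore also given without HFA 5 or over those 7 libraries.

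The difference between diets was examined with edgeR's quasi-likelihood test, HFA against CFA, adjusted by the Benjamini-Hochberg method over 15610 genes, and all 9 thermogenic genes were among the genes tested. Of the 9, 8 had a log2 fold change above 0 and 1 (Prdm16) a value below 0, with a median of 1.15, while over all genes tested 60.0% lay above 0 and the median was 0.064. At an adjusted p below 0.05, 0 of the 9 passed, as did 0% of all genes. At an unadjusted p below 0.05, Cox8b, Ppargc1a, Cox7a1 and Elovl3 were higher in HFA, 4 of 9, beside 3.87% of all genes tested. A further 3.49% of all genes were lower at that threshold, and 0 of the 9 were. The CPM ranges of the diets overlapped for each of the 9, whereas 0.75% of all genes were higher in every HFA library than in every CFA library. The SD of the HFA libraries was wider than the difference between the diet means for Cidea, Elovl3, Cox7a1, Dio2, Prdm16 and Otop1, and narrower for Ucp1, Cox8b and Ppargc1a, as the plots of single libraries show.

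**Figure D1:**
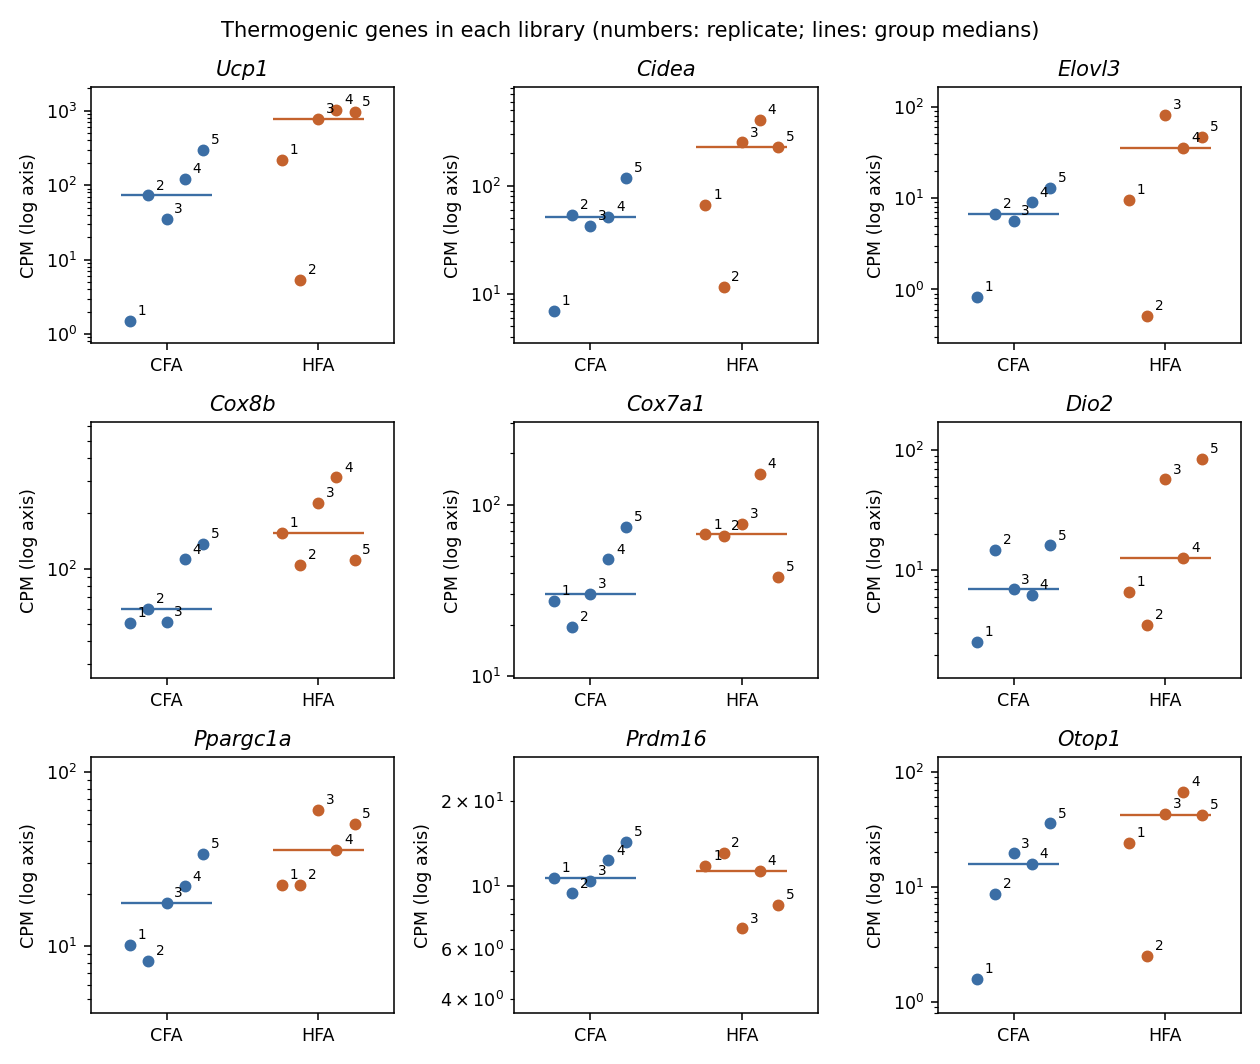
CPM of each thermogenic gene (log axis) in the 5 CFA (blue) and 5 HFA (orange) libraries, with replicate numbers and group medians as lines. Ucp1 runs from 1.51 CPM in CFA 1 to 1031 CPM in HFA 4, HFA 2 lies among the CFA values or below them for all 9 genes, and Prdm16 stays between 7.10 and 14.3 CPM.

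Ucp1 (ENSMUSG00000031710, chromosome 8 of GRCm38, 83290352 to 83298452, plus strand) encodes the uncoupling protein itself. In the CFA libraries 1 to 5, Ucp1 stood at 1.51, 72.7, 35.0, 121.0 and 296.6 CPM, and in the HFA libraries at 217.5, 5.35, 785.0, 1031 and 955.3 CPM. HFA 3, HFA 4 and HFA 5 lay above every CFA library, HFA 1 lay within the CFA range, and HFA 2 was lower than all CFA libraries but CFA 1. The highest library had 682 times the level of the lowest, and the SD of log2 CPM over the 10 libraries, 3.15, was larger than that of 99.9% of the genes tested. The lowest value rested on 22 reads and the highest count, in HFA 5, on 15008, so counting error was small beside the spread between mice. The mean was 105 ± 116 CPM under CFA and 599 ± 460 CPM under HFA (SD, n = 5 per diet), and the log2 fold change was 2.51 with a standard error (SE) of 1.26 and a 95% interval from −0.28 to 5.29 (adjusted p = 0.681). Without HFA 5 the log2 fold change was 2.22, and in the 7 libraries with few B and T cell markers it was 3.27. Set against Adipoq in the same library, a ratio that does not depend on scaling, Ucp1 had 0.0756% to 26.8% of the reads of Adipoq in CFA and 0.327% to 88.4% in HFA.

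Cidea (ENSMUSG00000024526) encodes a lipid droplet protein that is abundant in brown fat, where it acts on lipid storage. It stood at 7.004, 53.3, 42.3, 51.9 and 117 CPM in CFA and at 66.1, 11.6, 252, 407 and 228 CPM in HFA. The same 3 HFA libraries were highest as for Ucp1, and CFA 1 and HFA 2 were again the lowest. Its log2 fold change was 1.82 (SE 0.86, adjusted p = 0.674), with means of 54.4 ± 39.9 CPM under CFA and 193 ± 158 CPM under HFA. The ratio of Cidea to Ucp1 was not fixed: 23.8 to 73.3 reads of Cidea per 100 of Ucp1 were found in 7 libraries, 121 in CFA 3, 216 in HFA 2 and 464 in CFA 1, the libraries with the least Ucp1 having the most Cidea beside it.

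Elovl3 (ENSMUSG00000038754, chromosome 19, 46131897 to 46135694, plus strand) encodes an elongase of saturated very long chain fatty acids that is induced in brown fat in the cold. Its level was 0.824, 6.69, 5.59, 8.96 and 12.8 CPM in CFA and 9.63, 0.518, 81.5, 35.0 and 46.6 CPM in HFA. The lowest values rested on 12 reads in CFA 1 and 6 reads in HFA 2. HFA 3, HFA 4 and HFA 5 lay above every CFA library, and HFA 2 lay below all of them. The log2 fold change was 2.31 (SE 0.99, 95% interval 0.12 to 4.49, adjusted p = 0.665), and 1.48 by limma voom.

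Otop1 (ENSMUSG00000051596, chromosome 5, 38275972 to 38304217, plus strand) encodes the proton channel otopetrin 1 and is also enriched in brown fat. It stood at 1.58, 8.67, 19.5, 15.7 and 35.5 CPM in CFA and at 23.9, 2.50, 42.7, 66.7 and 42.5 CPM in HFA. The order of libraries was close to that of Ucp1, with CFA 1 and HFA 2 lowest and HFA 4 highest. The difference between diets was 1.14 on the log2 scale with a 95% interval from −0.66 to 2.93 (adjusted p = 0.768).

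Dio2 (ENSMUSG00000007682, chromosome 12, 90724552 to 90738438, minus strand) encodes type 2 deiodinase, which makes the active thyroid hormone T3 inside the brown adipocyte. Its level was 2.54, 14.7, 6.96, 6.29 and 16.1 CPM in CFA and 6.64, 3.54, 57.0, 12.7 and 85.2 CPM in HFA. HFA 3 and HFA 5 lay above every CFA library, while HFA 1, HFA 2 and HFA 4, the library with the most Ucp1, lay within the CFA range. Its log2 fold change was 1.83 (SE 0.85, adjusted p = 0.672) by edgeR, 1.05 without HFA 5 and 0.93 by limma voom with quality weights.

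Ppargc1a (ENSMUSG00000029167, chromosome 5, 51454250 to 51567726, minus strand) encodes PGC-1α, the coactivator that cold induces and that drives mitochondrial biogenesis in brown fat and in muscle. It stood at 10.2, 8.23, 17.7, 21.97 and 33.7 CPM in CFA and at 22.5, 22.4, 60.4, 35.5 and 50.2 CPM in HFA. All 5 HFA libraries were above the CFA mean of 18.4 ± 10.2 CPM, and 3 of them above every CFA library. The log2 fold change was 1.05 (SE 0.42, 95% interval 0.12 to 1.99, adjusted p = 0.656). HFA 2, which had little Ucp1, had as much Ppargc1a as HFA 1.

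Prdm16 (ENSMUSG00000039410, chromosome 4, 154316125 to 154636873, minus strand) encodes the zinc finger regulator that sets brown and beige identity against muscle and white fat. It was the member that varied least, at 10.7, 9.43, 10.5, 12.4 and 14.3 CPM in CFA and 11.8, 13.1, 7.10, 11.3 and 8.59 CPM in HFA. The highest library had 2.02 times the lowest, and HFA 3 and HFA 5, where Ucp1 was high, had the least Prdm16. The log2 fold change was −0.14 with a 95% interval from −0.58 to 0.30 (adjusted p = 0.885).

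Cox8b (ENSMUSG00000025488, chromosome 7, 140898945 to 140900446, minus strand) and Cox7a1 (ENSMUSG00000074218, chromosome 7, 30184144 to 30186078, plus strand) encode subunits of cytochrome c oxidase, the last complex of the respiratory chain. Both are the forms used by heart, skeletal muscle and brown fat, in place of Cox8a and Cox7a2, which are made in most tissues. Cox8b stood at 50.3, 60.1, 51.3, 112.2 and 136.3 CPM in CFA and at 155.9, 104.2, 227.6, 314.4 and 111.5 CPM in HFA. Every HFA library was above the CFA mean and 3 were above every CFA library, for a log2 fold change of 1.15 (SE 0.39, 95% interval 0.28 to 2.02, unadjusted p = 0.0141, adjusted p = 0.655, edgeR). Cox7a1 stood at 27.5, 19.4, 30.4, 48.1 and 74.1 CPM in CFA and at 67.3, 65.8, 77.1, 152.0 and 38.1 CPM in HFA. Here only HFA 3 and HFA 4 exceeded every CFA library, and the log2 fold change was 1.00 (SE 0.42, adjusted p = 0.662). These 2 genes parted from Ucp1 in the same libraries: in HFA 2, with 5.35 CPM of Ucp1, Cox8b was at 104.2 CPM, and in HFA 5, with 955.3 CPM of Ucp1, it was at 111.5 CPM. The muscle markers stood at 62162 CPM in HFA 2 and at 832 CPM in HFA 5, so the level of Ucp1 in HFA 5 was high where muscle RNA was scarce. The part of muscle RNA in the levels of Cox8b and Cox7a1 was not tested beyond adding the mean of the muscle markers to the model, where their log2 fold changes were 1.17 (adjusted p = 0.169) and 1.02 (adjusted p = 0.183) by the quasi-likelihood test. With limma voom and quality weights, which give libraries that stand apart less weight, Cox8b (1.43, adjusted p = 0.0379) and Cox7a1 (1.25, adjusted p = 0.0388) passed the adjusted threshold, 2 of the 9 beside 3.33% of all genes.

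**Figure D2:**
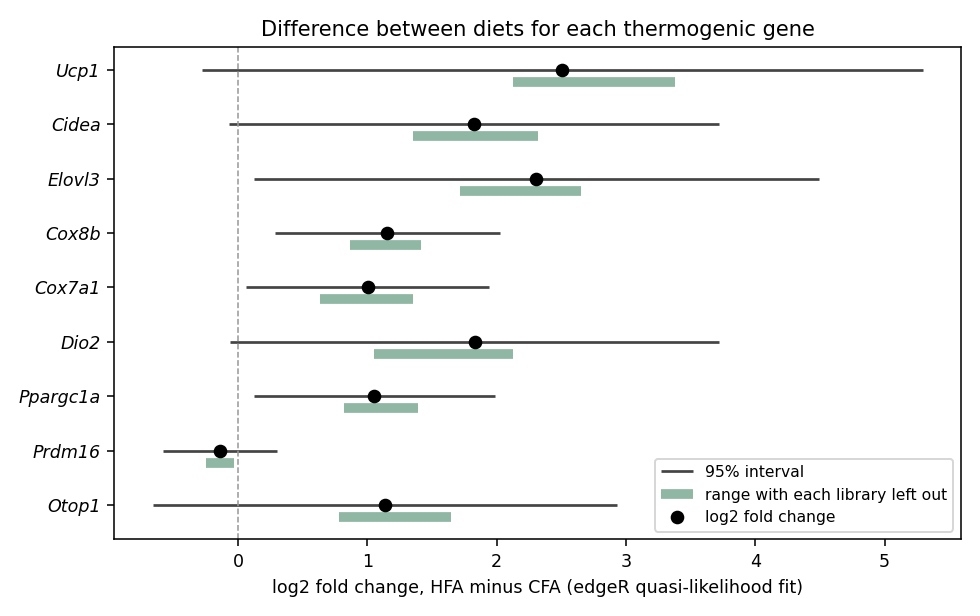
Log2 fold change of each thermogenic gene, HFA minus CFA (points), with its 95% interval from edgeR's quasi-likelihood fit (thin lines) and the range when each library was left out in turn (thick bars). The intervals of Elovl3, Cox8b, Cox7a1 and Ppargc1a lie above 0, those of the other 5 genes include 0, and every leave-one-out range except that of Prdm16 lies above 0.

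Leaving out single libraries never turned the direction of any of the 9 genes, but it moved how many had an unadjusted p below 0.05. That number was 1 without CFA 1, CFA 2, CFA 3 or HFA 3, 2 without HFA 5 and 7 without HFA 2. The share of all genes higher at that threshold moved as well, to 1.1% to 2.74% in the refits with 1 member, 10.8% without HFA 5 and 3.56% without HFA 2. Of the log2 fold changes, that of Ucp1 ran from 2.13 without CFA 1 to 3.38 without CFA 5, and that of Cox7a1 from 0.64 without HFA 4 to 1.35 without CFA 5.

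The sample titles carry a second digit whose meaning is given neither in the labels nor in the study's methods, 2 for CFA 1, CFA 2, HFA 1, HFA 2 and HFA 3 and 3 for the other 5 libraries. Within the digit 2 the log2 ratio of the diet means was 3.18 for Ucp1, 1.56 for Cox8b, 1.58 for Cox7a1 and 1.93 for Ppargc1a. Within the digit 3 it was 2.72 for Ucp1, 1.09 for Cox8b, 0.90 for Cox7a1 and 0.81 for Ppargc1a. The other members but Prdm16 were higher in HFA within both digits, at 1.38 to 3.02 within the digit 2 and 1.21 to 2.32 within the digit 3, and Prdm16 was at 0.085 and −0.31. A test of the difference between the digits gave 0 members with an unadjusted p below 0.05, where 8.46% of all genes had one, and adjusted p-values from 0.568 to 0.945 (edgeR, interaction term). The standard errors of that difference ran from 0.42 for Prdm16 to 2.43 for Ucp1 on the log2 scale.

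Levels of different genes can be compared only per length of transcript. Averaged over the 10 libraries and divided by exon length, Cox8b stood highest at 368 ± 232 CPM per kb (SD, n = 10), followed by Ucp1 at 215 ± 250, Cox7a1 at 112 ± 71.7 and Cidea at 111 ± 117 CPM per kb. Next came Elovl3 at 10.5 ± 13.2, Otop1 at 7.53 ± 6.05, Ppargc1a at 4.29 ± 2.55, Dio2 at 3.64 ± 4.73 and Prdm16 at 1.17 ± 0.232 CPM per kb. Each step down in this order was smaller than the larger SD of the neighbours. The order within a diet was not the same throughout: in CFA, Cox7a1 (74.6 ± 40.7 CPM per kb) stood above Ucp1 (64.4 ± 70.8) and Otop1 (4.70 ± 3.72) above Elovl3 (3.53 ± 2.24), differences again smaller than these SDs (n = 5). In both diets the means of the mitochondrial and lipid droplet genes stood above those of the elongase, channel, deiodinase and regulatory genes. This did not hold in every library. In CFA 1, Ucp1 (0.923 CPM per kb) lay below Ppargc1a (1.54) and Prdm16 (1.15), and in HFA 2, Ucp1 (3.27) lay below Ppargc1a (3.40).

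How the 9 genes moved with one another was described against Ucp1, on log2 CPM over the 10 libraries, in 14 relations (8 other members and 6 marker lists) with permutation p-values adjusted over the 14. CFA 1 and HFA 2 stood apart from the other 8 libraries in Ucp1, so r is also given over those 8. Cidea followed Ucp1 most closely, with Pearson's r = 0.98 and Spearman's rho = 0.98 (permutation p = 1e-05, the smallest that the resampling could give, adjusted p = 0.00014) and r = 0.95 over the 8. For Otop1, r was 0.96 and rho 0.95 (permutation p = 6e-05, adjusted p = 0.00028), and for Elovl3 r was 0.96 and rho 0.94 (permutation p = 6e-05, adjusted p = 0.00028), with r = 0.85 and 0.91 over the 8 libraries. Among the other 15609 genes tested, these 3 ranked 1st, 3rd and 4th by r with Ucp1, and 0.109% of the genes had r above 0.9.

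The rest of the members followed Ucp1 less closely or not at all. Dio2 had r = 0.81 and rho = 0.76 (permutation p = 0.00572, adjusted p = 0.02), Cox8b r = 0.73 and rho = 0.83 (permutation p = 0.0163, adjusted p = 0.0381) and Ppargc1a r = 0.73 and rho = 0.83 (permutation p = 0.0162, adjusted p = 0.0381). Over the 8 libraries their r was 0.68, 0.85 and 0.83. With each of the 10 libraries left out in turn, the adjusted p rose above 0.05 in 7 cases for Cox8b, in 8 for Ppargc1a and, for Dio2, without CFA 1 alone (0.0664, exact permutation). By r with Ucp1 these genes ranked 143, 347 and 364 among all genes, far below Cidea, Otop1 and Elovl3. For Cox7a1 r was 0.50 and rho 0.67 (permutation p = 0.142, adjusted p = 0.202), and for Prdm16 r was −0.32 and rho −0.21 (permutation p = 0.369, adjusted p = 0.47). Cox8b and Cox7a1 were closest to each other among the pairs that hold either of them, with r = 0.92 as a description. Within a diet or a title digit there are 5 libraries, too few for a correlation.

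**Figure D3:**
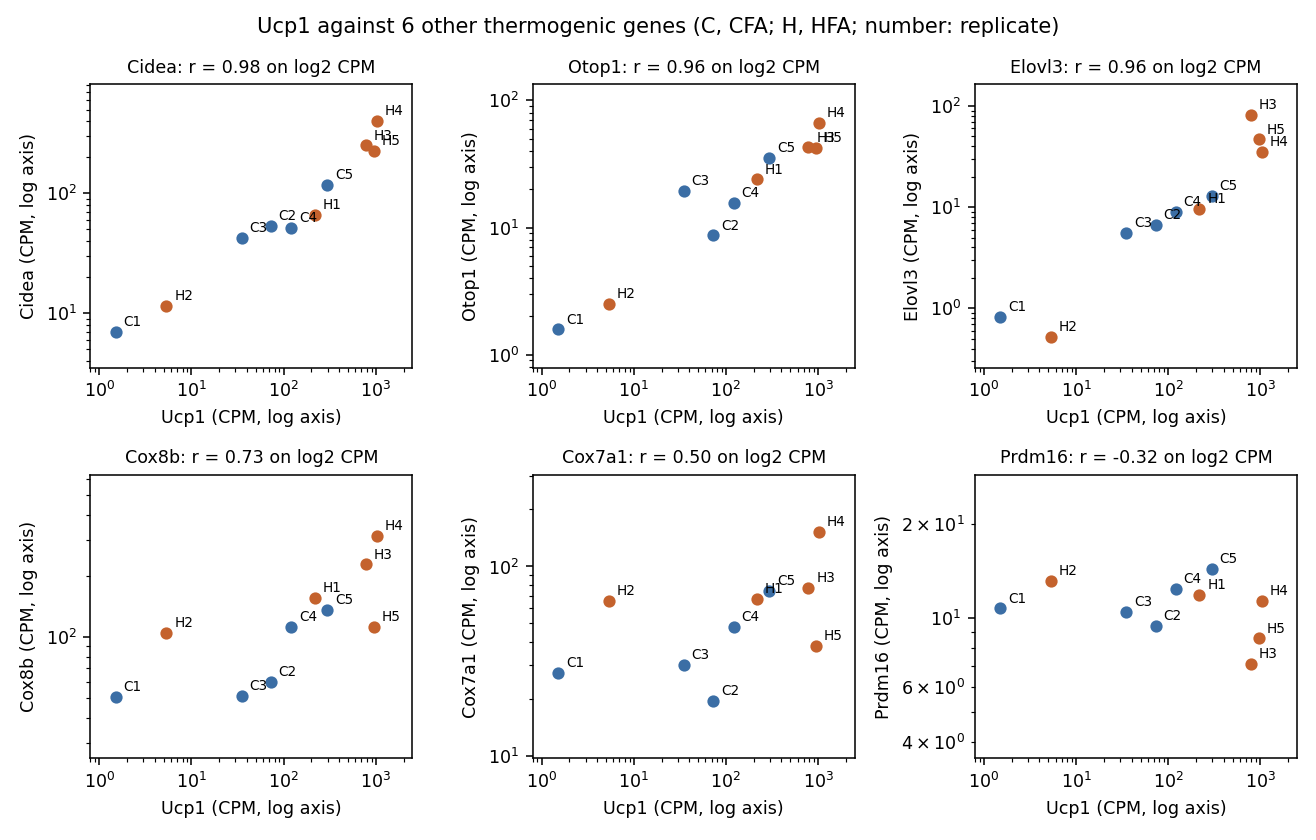
CPM of 6 thermogenic genes against CPM of Ucp1 (both axes logarithmic), 1 point per library, CFA blue and HFA orange. Cidea, Otop1 and Elovl3 rise with Ucp1 (r = 0.98, 0.96 and 0.96 on log2 CPM), HFA 2 lies high and HFA 5 low for Cox8b and Cox7a1, and Prdm16 shows no rise (r = −0.32).

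The marker lists did not follow Ucp1 at the adjusted threshold. The mean of the adipocyte markers had r = 0.020 with Ucp1 (permutation p = 0.955), that of the muscle markers r = −0.18 (permutation p = 0.633) and that of the epithelial markers r = −0.58 (permutation p = 0.0768, adjusted p = 0.134). For the endothelial markers r was −0.60, for the macrophage markers −0.51 and for the Schwann cell and sympathetic nerve markers −0.19. Over the 7 libraries with few B and T cell markers, the adipocyte list had r = 0.75, the muscle list 0.50 and the Schwann cell and nerve list 0.17 with Ucp1. There the endothelial list had r = −0.79, the macrophage list −0.56 and the epithelial list −0.55. These values thus depended on which libraries entered. No r is reported for the B and T cell list, since its values fell into 2 separate groups of libraries.

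By the same measure, the 10 genes most like Ucp1 were Cidea, Slc27a2, Otop1, Elovl3, Entpd5, Pnkd, Afg1l, Tomm40, Ebag9 and Tmem14c, with r from 0.91 to 0.98. Slc27a2, a very long chain acyl-CoA synthetase that activates fatty acids, had r = 0.97 and stood at 0.137 to 10.1 CPM in CFA and 0.259 to 67.6 CPM in HFA. Tomm40, the import pore of the outer mitochondrial membrane, ran from 25.3 to 47.5 CPM, and the 6 genes from Entpd5 to Tmem14c had SDs of log2 CPM of 0.22 to 0.45, against 3.15 for Ucp1. They shared the order of the libraries with Ucp1 but not the size of its range. The list was ranked on these libraries and was given no test.

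The sequences around the start sites of Ucp1, Dio2, Cox8b and Cox7a1 are shown as examples. RefSeq (GRCm38.p6) windows, 250 bases before the annotated start and 50 bases from it on, were read for 7 of the 9 genes. Cidea and Elovl3 were not among these 7, which does not show that RefSeq lacks a window for them. Capitals mark the letters TGACG (a cAMP response element half-site), TGACGTCA (the full element, which holds the half-site on both strands), AGGTCA (a nuclear receptor half-site), TATAAA (the TATA box) and CCAAT (read here as ATTGG where it lies on the other strand), searched on both strands. The windows are chr8:83290098-83290397 (plus strand) for Ucp1, chr12:90738989-90739288 (minus strand) for Dio2, chr7:140900397-140900696 (minus strand) for Cox8b and chr7:30183921-30184220 (plus strand) for Cox7a1, each written 5′ to 3′ on its gene's strand.
Ucp1: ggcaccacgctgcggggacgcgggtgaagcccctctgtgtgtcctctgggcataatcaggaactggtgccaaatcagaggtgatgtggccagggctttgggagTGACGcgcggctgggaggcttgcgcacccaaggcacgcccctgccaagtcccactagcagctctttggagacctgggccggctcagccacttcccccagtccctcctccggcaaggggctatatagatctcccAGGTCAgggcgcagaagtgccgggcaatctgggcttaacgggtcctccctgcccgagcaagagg
Dio2: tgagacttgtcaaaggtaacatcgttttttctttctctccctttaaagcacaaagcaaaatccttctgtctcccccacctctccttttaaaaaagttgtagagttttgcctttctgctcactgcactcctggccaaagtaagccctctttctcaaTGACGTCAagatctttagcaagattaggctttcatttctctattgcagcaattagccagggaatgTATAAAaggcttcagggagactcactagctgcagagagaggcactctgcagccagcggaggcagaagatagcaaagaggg
Cox8b: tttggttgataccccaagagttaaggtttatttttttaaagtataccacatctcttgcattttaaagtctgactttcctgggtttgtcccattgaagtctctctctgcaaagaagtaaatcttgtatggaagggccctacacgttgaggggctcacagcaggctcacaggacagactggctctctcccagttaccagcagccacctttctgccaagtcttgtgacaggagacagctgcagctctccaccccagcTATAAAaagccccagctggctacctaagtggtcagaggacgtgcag
Cox7a1: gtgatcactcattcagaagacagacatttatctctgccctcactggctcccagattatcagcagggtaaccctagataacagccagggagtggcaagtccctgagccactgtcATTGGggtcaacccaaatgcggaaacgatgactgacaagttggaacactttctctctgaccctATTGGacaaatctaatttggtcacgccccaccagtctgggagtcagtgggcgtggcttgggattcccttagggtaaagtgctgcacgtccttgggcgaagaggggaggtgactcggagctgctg

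In the Ucp1 window the cAMP half-site began at base −147 and the nuclear receptor half-site at base −14, counted from the annotated start. Dio2 held the full cAMP element at −95 and a TATA box at −30, Cox8b a TATA box at 5, just past its annotated start, and Cox7a1 a pair of CCAAT boxes on the minus strand at −137 and −74. Ppargc1a, not shown, held the cAMP half-site on the minus strand at −49. The half-site was thus in 3 of 7 windows, beside 20.8% of 32851 mouse promoters of the same length, and the full element in 1 of 7 beside 1.79%. AGGTCA occurred in 16.3% of all promoters, TATAAA in 13.6% and CCAAT in 37.4%, and the 9 letters TCAAGGTCA, a site of oestrogen-related receptors, were in none of the 7 windows and in 0.423% of all. Such matches are descriptions of letters, and the counts do not show whether a factor was bound there.

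The choice between the 2 forms of a subunit can be read within a library, free of scaling, as the share of one form in the pair. Per kilobase, Cox8b made up 28.2%, 29.5%, 27.7%, 40.7% and 48.8% of Cox8b and Cox8a together in CFA 1 to CFA 5, and 52.8%, 53.2%, 63.1%, 54.4% and 41.5% in HFA 1 to HFA 5. In all HFA libraries but HFA 5 the share was above every CFA library. The mean was 34.9% ± 9.39 in CFA and 53.0% ± 7.69 in HFA (SD, n = 5 per diet), a difference of 18.1 percentage points (two-sided exact permutation test, p = 0.0159, adjusted p = 0.0317 over the 2 shares). This share uses the same reads of Cox8b as the fold change above and is not separate evidence.

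For Cox7a1 with Cox7a2, the share was 28.8%, 19.2%, 25.0%, 33.6% and 41.7% in CFA and 44.0%, 49.3%, 45.7%, 48.5% and 27.8% in HFA. Again HFA 1 to HFA 4 were above every CFA library, and HFA 5 was within the CFA range. The mean was 29.7% ± 8.54 in CFA and 43.0% ± 8.81 in HFA, a difference of 13.4 percentage points (two-sided exact permutation test, p = 0.0476, adjusted p = 0.0476). With single libraries left out, its p ranged from 0.0159 to 0.0952 and was above 0.05 in 7 of 10 cases, while that of Cox8b stayed between 0.0159 and 0.0317. Within the title digit 2 the differences were 27.6 points for Cox8b and 22.3 for Cox7a1, and within the digit 3 they were 8.91 and 4.66. The summed muscle markers were higher in HFA 1 to HFA 4 than in every CFA library too. In HFA 5 they were the lowest of all libraries, while both shares there lay within the CFA range. The part of muscle RNA in the shares was not tested. Cox8a (245 ± 22.97 CPM in CFA, 270 ± 110 CPM in HFA) and Cox7a2 (155 ± 23.9 and 178 ± 63.0 CPM) had log2 fold changes of 0.14 and 0.20 (adjusted p = 0.907 and 0.845 by edgeR's quasi-likelihood test).

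**Figure D4:**
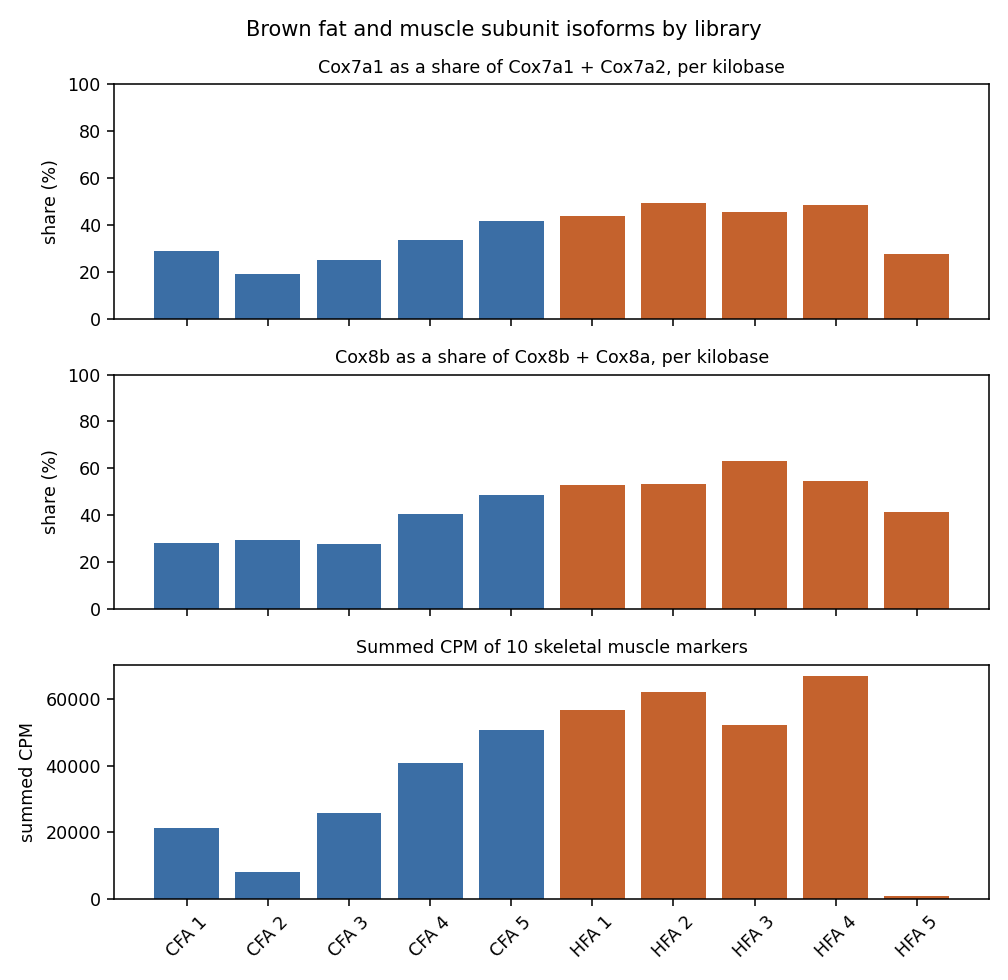
Share of Cox7a1 in Cox7a1 and Cox7a2 (top, %, per kilobase), share of Cox8b in Cox8b and Cox8a (middle, %) and summed CPM of the 10 skeletal muscle markers (bottom) in each library, CFA blue and HFA orange. HFA 1 to HFA 4 exceed all CFA libraries in each panel, and HFA 5 drops to 27.8%, 41.5% and 832 CPM.

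The relatives of the members showed which forms of each family this tissue used. Of 18 paralogues, 13 were tested, and Cideb, Dio1, Dio3, Otop2 and Otop3 were too low to test, each at 0.299 CPM or less in every library. Ucp2, a relative of Ucp1 found in many tissues, stood at 343 ± 93.4 CPM under CFA and 305 ± 153 CPM under HFA, and Ucp3, the form of muscle and brown fat, at 68.4 ± 27.0 and 111 ± 44.7 CPM (log2 fold changes −0.17 and 0.70, adjusted p = 0.916 and 0.693, edgeR). Cidec, the white fat relative of Cidea, was far more abundant than Cidea at 1055 ± 352 CPM under CFA and 1257 ± 445 CPM under HFA. Pprc1 (−0.16), Mecom (0.04), Elovl1 (−0.01), Elovl5 (−0.06) and Cox7a2l (0.18) had log2 fold changes near 0.

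At an unadjusted p below 0.05, 1 paralogue was higher and 2 were lower in HFA, beside 3.87% and 3.49% of all genes. Ppargc1b, the sister of Ppargc1a, stood at 7.72 ± 3.24 CPM under CFA and 16.4 ± 6.89 CPM under HFA, a log2 fold change of 1.08 (unadjusted p = 0.0126, adjusted p = 0.655). Elovl4, an elongase of very long polyunsaturated chains, stood at 8.79, 6.91, 9.36, 3.69 and 2.91 CPM in CFA and at 1.11, 1.90, 2.41, 1.46 and 0.700 CPM in HFA, with no overlap, a pattern found for 0.243% of all genes. Its log2 fold change was −2.08 (SE 0.43, unadjusted p = 0.000573, adjusted p = 0.577). Elovl6, which elongates newly made fatty acids in white fat and liver, was at 1668 ± 783 CPM under CFA and 695 ± 435 CPM under HFA, a log2 fold change of −1.26 (unadjusted p = 0.038, adjusted p = 0.661). All 4 tested relatives of Elovl3 had log2 fold changes below 0.

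Other genes of the thermogenic programme were read from lists of adrenergic signalling, transcription regulators, fatty acid use, brown fat markers, beige fat markers and creatine or calcium cycling. Of 65 such genes 60 were tested, and 52 had a log2 fold change above 0, with a median of 0.45. That number was 49 under upper-quartile scaling and lowest, at 45, by limma voom and without CFA 2. At an unadjusted p below 0.05, 12 were higher and 1 lower in HFA, beside 3.87% and 3.49% of all genes. At the adjusted threshold 0 passed. The count of 12 was 6 without CFA 3, 7 without CFA 1, and 8 without CFA 2, HFA 3 or HFA 4, where 1.1% to 3.02% of all genes were higher at that threshold. Without HFA 5, 24 were higher and 3 lower, beside 10.8% and 15% of all genes. Gk and Ffar4 were not under the threshold there (unadjusted p = 0.102 and 0.0729), while 14 genes came under it as higher, among them the β3 receptor Adrb3 (0.49, unadjusted p = 0.0167), and Creb1 and Tnfrsf9 as lower.

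The genes of fatty acid use were the group with the most such differences. All 14 had a log2 fold change above 0, with a median of 0.89, and 8 had an unadjusted p below 0.05, beside 3.87% of all genes higher at that threshold. Without CFA 1, CFA 2, CFA 3 or HFA 4 the 8 became 4 and without HFA 3 they became 5, and in each of these refits 13 of the 14 lay above 0. Plin5, which ties lipid droplets to mitochondria in oxidative cells, stood at 12.3, 12.2, 14.9, 29.4 and 25.0 CPM in CFA and at 35.0, 34.8, 60.3, 63.5 and 44.1 CPM in HFA. Every HFA library was above every CFA library, HFA 2 with its little Ucp1 included, a pattern found for 0.75% of all genes. The log2 fold change of Plin5 was 1.34 (SE 0.30, unadjusted p = 0.00116, adjusted p = 0.577 by the quasi-likelihood test). It passed by the likelihood ratio test (adjusted p = 0.0339), DESeq2 (adjusted p = 0.0139) and limma voom with quality weights (adjusted p = 0.0338). By these tests, in the same order, 33, 60 and 1037 of all 15610 genes passed. Pdk4, the kinase that shuts off pyruvate oxidation, was at 414 ± 132 CPM under CFA and 841 ± 224 CPM under HFA (1.02, unadjusted p = 0.00302, edgeR's quasi-likelihood test).

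The other 6 of these were Slc27a2 (2.98), the glycerol kinase Gk (1.33), the acyl-CoA dehydrogenases of medium, very long and long chains Acadm (0.95), Acadvl (0.87) and Acadl (0.74), and the thiolase Acaa2 (0.79), with unadjusted p-values from 0.00493 to 0.0376. Of the exonic bases of Acadvl, 42.9% overlap Dvl2, and reads there cannot be assigned to one gene. Cpt1b, the carnitine transferase of muscle and brown fat, was at only 0.219 to 2.13 CPM, and 81.4% of its exonic bases overlap another gene model, so its value says little. Acadl was the most abundant gene of this list per length, at 261 CPM per kb. Heart and skeletal muscle also use these genes. The part of muscle RNA in their levels was not tested beyond a fit with the mean log2 CPM of the muscle markers as a covariate. That covariate was 5.06 in HFA 5 and 8.02 to 10.8 in the other libraries, so HFA 5 stood apart in it. With the skeletal muscle markers as a covariate, 10 of the 14 had an unadjusted p below 0.05 with a median of 0.90, where 8.65% of all genes were higher at that threshold, and Plin5 (1.36, unadjusted p = 0.00106) and Pdk4 (1.04, unadjusted p = 0.000431) were among them.

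**Figure D5:**
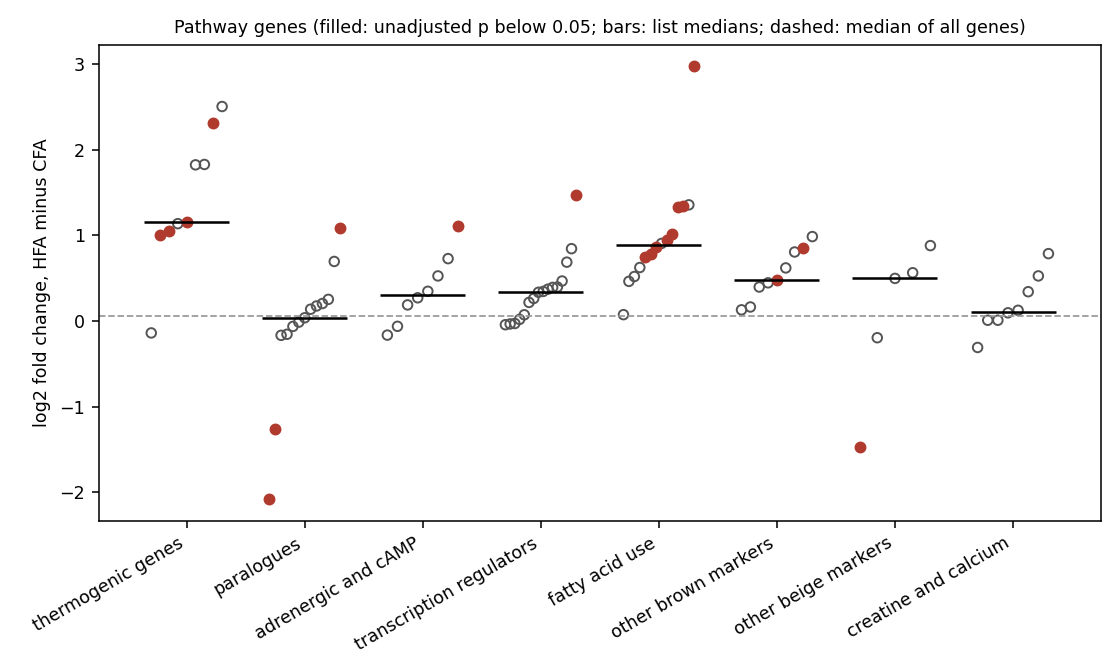
Log2 fold change, HFA minus CFA, of each tested gene of the thermogenic list, its paralogues and 6 pathway lists, filled where the unadjusted p is below 0.05, with list medians as bars and the median of all genes (0.064) dashed. The medians are 1.15 for the thermogenic genes, 0.037 for the paralogues and 0.89 for fatty acid use.

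In the adrenergic arm, 1 of 8 genes, the adenylate cyclase Adcy3, had an unadjusted p below 0.05, beside 3.87% of all genes higher at that threshold. It stood at 23.2 ± 4.70 CPM under CFA and 50.2 ± 22.7 CPM under HFA (1.12 on the log2 scale, unadjusted p = 0.00563, adjusted p = 0.648), and 22.1% of its exonic bases overlap another gene. Adrb3, the β3 receptor through which noradrenaline acts on fat, was at 201 ± 39.6 and 256 ± 86.9 CPM (0.35, adjusted p = 0.774, edgeR). Of its exonic bases, 24.9% overlap another gene. The kinase subunit Prkar2b was the most abundant of this list per length at 160 CPM per kb, with a log2 fold change of 0.27. Among 16 transcription regulators, Ppara, the fatty acid receptor that switches on oxidation genes, was alone under that threshold, 1 of 16 beside 3.87% of all genes. Ppara stood at 9.57 ± 4.68 CPM under CFA and 26.7 ± 16.7 CPM under HFA (1.48, unadjusted p = 0.00899, adjusted p = 0.648, edgeR). Cebpa, the most abundant regulator per length, was at −0.03, and the median of the 16 was 0.34.

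Of 12 other brown fat markers 9 were tested, and all 9 had log2 fold changes above 0. Lhx8 (4.53 ± 1.64 CPM in CFA, 8.19 ± 3.53 CPM in HFA, 0.86) and the fatty acid receptor Ffar4 (10.8 ± 2.89 and 15.1 ± 2.59 CPM, 0.48) had unadjusted p-values of 0.0266 and 0.0491 (edgeR). These were 2 of 9 under 0.05, beside 3.87% of all genes higher at that threshold. Zic1, a marker of classical brown fat, was too low to test, with 0 to 2 reads in 8 libraries, 16 reads in HFA 2 and 14 reads in HFA 3. Slc36a2 was the most abundant gene of this list per length at 69.2 CPM per kb (log2 fold change 0.45, adjusted p = 0.744). Of 6 beige fat markers 5 were tested, and 1 of them, Cited1, was lower in HFA at an unadjusted p below 0.05, beside 3.49% of all genes. Cited1 stood at 47.8 ± 30.3 CPM under CFA and 17.2 ± 13.4 CPM under HFA (−1.47, unadjusted p = 0.0387, adjusted p = 0.662, edgeR). It was also the most abundant of the beige list. Of the 9 tested epithelial markers 8 were below 0 as well, with a median of −0.82. The part of epithelial RNA in the level of Cited1 was not tested. Tmem26 (0.56), Tnfrsf9 (0.50), Tbx1 (0.88) and Klhl13 (−0.20) had adjusted p-values from 0.774 to 0.919. The direction of Tmem26 and Tnfrsf9 turned without HFA 5, to −1.41 (unadjusted p = 0.0751) and −2.04 (unadjusted p = 0.0127), and Tmem26 was at −0.78 over the 7 libraries with few B and T cell markers.

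The genes of creatine and calcium cycling, a second route to heat that does not use UCP1, had 0 of 8 tested with an unadjusted p below 0.05. Their median log2 fold change was 0.11, and Ckb, the creatine kinase of this cycle in brown fat, was at 14.1 ± 2.58 CPM under CFA and 17.9 ± 2.52 CPM under HFA (0.34, adjusted p = 0.678, edgeR). Ckmt2, the most abundant of the list per length and also a gene of muscle, was at 5.03 CPM in HFA 5 and at 25.4 to 315 CPM elsewhere. Without HFA 5, Ckmt2 (1.06, unadjusted p = 0.0417) and Gatm (0.64, unadjusted p = 0.0136), which makes the precursor of creatine, were higher at that threshold. They were 2 of 8, beside 10.8% of all genes. Both were also higher over the 7 libraries (unadjusted p = 0.0028 and 0.035, edgeR), where 11.9% of all genes were.

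Markers of fat in general, of muscle and of epithelium were read in the same fit. The 10 adipocyte markers had log2 fold changes from −0.40 to 0.49, 0 of them with an unadjusted p below 0.05, and their summed level was 13552 to 20903 CPM in CFA and 13097 to 24238 CPM in HFA. The 9 tested muscle markers all lay above 0 with a median of 0.68 and 0 under that threshold. Without HFA 5, 5 were under it, beside 10.8% of all genes higher. Over the 7 libraries with few B and T cell markers all 9 were, beside 11.9%. Acta1, the muscle actin and the most abundant of them per length, was at 1621 to 11368 CPM in CFA, 12711 to 15092 CPM in HFA 1 to HFA 4 and 224 CPM in HFA 5. Of the 9 tested epithelial markers 8 were below 0, with the summed level at 581 to 2487 CPM in CFA and 381 to 2078 CPM in HFA. Epcam was lower in HFA at an unadjusted p below 0.05 (−0.96, unadjusted p = 0.0418, adjusted p = 0.667, edgeR), 1 of 9 beside 3.49% of all genes. Of the 5 tested genes of the Schwann cell and nerve list, 3 were higher in HFA at an unadjusted p below 0.05. The share of all genes was 3.87%. For 1 of them the diets did not overlap, as for 0.75% of all genes. With single libraries left out the number was 1 to 3, beside 1.1% to 10.8% of all genes. In that list Th, the enzyme of noradrenaline synthesis, was at 0 to 2.55 CPM. The most abundant gene per length of the other lists had a log2 fold change of 0.34 for Cfd (adipocytes), −0.09 for Krt18 (epithelium), 1.201 for Cd79b (B cells), 0.12 for Cdh5 (endothelium) and 0.23 for Lyz2 (macrophages), with adjusted p-values from 0.811 to 0.967. Without HFA 5 the direction turned for Cd79b, to −5.14, for Krt18, to 0.10, and for Lyz2, to −0.42, and all 8 tested B and T cell markers turned from higher to lower in HFA. The part of these cells in the thermogenic gene levels was not tested, beyond fits with B and T cell, skeletal muscle or adipocyte marker covariates. In these fits all 8 genes that were higher in HFA stayed above 0. The epithelial, endothelial, macrophage, and Schwann cell and nerve lists were not entered as covariates.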

How the data were processed

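The authors aligned 75-base paired reads to GRCm38 with TopHat2 2.0.14 and Bowtie2 2.2.5 and deposited raw counts of reads per Ensembl gene from HTSeq 0.6.1, 1 list per mouse and not normalized. Reads with more than 1 alignment (28.8% to 33.9% of the lines) and the HTSeq summary lines were left out, which limits genes with near copies. The study sequenced further mice that are not analysed here.

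After filterByExpr and TMM scaling, the HFA libraries were tested against the CFA libraries by the quasi-likelihood test of edgeR 4.0.16 in R 4.3.3 (estimateDisp, no covariate, two-sided). The study's own model held cage, which the labels do not give. Alternatives changed the scaling, the filter, the test (limma 3.58.1, DESeq2 1.42.0) or the covariates, or left out libraries. Log2 CPM used a prior count of 2, and correlations 100000 permutations (NumPy 2.4.6, exact with 9 libraries), and shares exact permutation tests (SciPy 1.17.1). Symbols (46488 of 46983) and exon lengths came from GENCODE M21, promoters from RefSeq. The scripts were tested on simulated data. Depth is given above, and counts carry no molecular identifiers, so limits from counts cover counting error only. No pair of the 45 was a copy (highest r 0.983). The members and the lists were chosen with earlier results of these data known.

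Genes named are the 9 members, their paralogues, pathway genes with an unadjusted p below 0.05 or the highest level per length in their list, the most abundant marker of a list, and the 10 genes most correlated with Ucp1. Adipoq, Epcam, Dvl2, Cpt1b, Zic1, Ckb, Adrb3, Th and the remaining beige markers were named after their values were seen. Creb1, Gatm and Tnfrsf9 were named likewise. Some genes of the Schwann cell and nerve list are not reported here one by one.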

Additional observations from a re-analysis of the deposited data

Results flagged for a closer look

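Across 36 sets of 5 libraries (each member, each marker list and both subunit shares in each diet), 4 held a library whose gap to the nearest of the others exceeded Dixon's 95% critical value of 0.71 as a share of the range, where chance gives about 1 in 20. The 3 in HFA all concern HFA 5: the summed skeletal muscle markers stood at 832 CPM against 52241 to 66879 CPM in the other HFA libraries, the summed B and T cell markers at 2696 CPM against 7.59 to 11.2 CPM, and the share of Cox7a1 at 27.8% against 44.0% to 49.3%. In CFA, the summed endothelial markers of CFA 2 stood at 406 CPM against 527 to 561 CPM in the other libraries. None of the 18 sets that hold the CPM of a member exceeded the critical value. The CPM entered without taking logs, so a library far below the others leaves only a small gap. An example is Ucp1 in HFA 2, at 5.35 CPM against 217.5 to 1031 CPM in the other HFA libraries.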

How the results depend on the processing

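The direction of all 9 members was kept under every alternative (RLE and upper-quartile scaling, other filters, other tests, covariates, and each library left out), and in 232 of 234 refits the side of the adjusted threshold was kept too. The exceptions are Cox8b and Cox7a1, 2 members past the adjusted threshold by limma voom with quality weights. Members higher at an unadjusted p below 0.05 numbered 4, beside 3.87% of all genes. They numbered 7 by the likelihood ratio test, by DESeq2 and with a term for the second title digit (2.68%, 5% and 4.78% of all genes). With covariates of B and T cell and muscle markers, chosen after seeing the data, they also numbered 7 (10.5%). By limma voom they numbered 3, both without quality weights (3.5%) and with them (15.9%). They numbered 1 to 7 with each library left out, beside 1.1% to 10.8% of all genes. Pathway genes at that threshold numbered 12, and 31 by limma voom with quality weights, 23 with the muscle covariate, 19 with the adipocyte covariate, 26 with both covariates of B and T cell and muscle markers, and 25 in the 7 libraries with few B and T cell markers, an alternative also chosen after seeing the data. The share of all genes higher at that threshold was 3.87%, and in the same order 15.9%, 8.65%, 6.14%, 10.5% and 11.9%, so all genes moved too. The pathway genes numbered 6 to 24 with each library left out, beside 1.1% to 10.8% of all genes. Past the adjusted threshold there were 0, and 1 by the likelihood ratio test, DESeq2 or in the 7 libraries, and 5 with quality weights. Among all genes, 33 of 15610 passed by the likelihood ratio test, 60 by DESeq2 and 1037 with quality weights. In the 7 libraries 469 of 15759 passed. The cause of these differences was not tested.

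What the middle title digits mark is given in no source used here, and whether they are the cage in the study's model is not known. For the 4 pairs of libraries that share both digits, the correlations of the deviations from the diet means were 0.298, −0.294, 0.111 and 0.41, and since 1 pair was below 0 the digits were not taken to pair the libraries. A replicate block by these digits gave 7 members higher at an unadjusted p below 0.05, beside 2.13% of all genes, and 0 past the adjusted threshold.

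Relations of Ucp1 past the adjusted threshold numbered 6, and 3 to 7 with each library left out. Under these omissions r with the adipocyte markers ran from −0.15 to 0.51, with the muscle markers from −0.29 to 0.31 and with the Schwann cell and nerve markers from −0.33 to 0.082, the highest of each without HFA 5. The difference in the Cox7a1 share ran from 10.8 to 17.2 percentage points. With 7672199 to 14829291 reads, counting error limited only values of a few reads, and the spread between mice set the precision of the rest.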
